A study of Mus musculus with 6 samples.

Results

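The 10 genes described here encode adhesion, matrix, scaffold and potassium channel proteins of the node of Ranvier region, and were chosen by name: Nfasc, Cntn1, Cntn2, Cntnap1, Cntnap2, Hapln2, Bcan, Kcna1, Kcna2 and Epb41l3. All 10 were found among the 39017 genes of the count table, and all 10 passed the filter on low counts that left 16569 genes for testing. The libraries hold RNA pulled down with HA-tagged ribosomes from the corpus callosum, a white matter tract, of C57BL/6 mice that carried RiboTag together with Olig1-Cre. Every library, control or not, came from mice with both alleles, in which the ribosomal protein RPL22 is tagged in cells with a history of Olig1-driven Cre, so cells of the whole lineage and any other cell with such a history can contribute. There were 3 control libraries (replicates 24, 26 and 27, titled as vehicle) and 3 libraries of a cuprizone group (replicates 30, 31 and 32), whose diet held 0.2% of this copper-binding toxin, used to strip myelin through the death of oligodendrocytes. The protocol describes females of 8 to 10 weeks at the start, a cuprizone diet lasting 6 or 9 weeks, and then 3 weeks of control diet for recovery, without saying which of these stages the cuprizone libraries represent. The labels do not say whether each library came from 1 animal, so the p-values measure the spread between these libraries. No library of unbound or input RNA was analysed here, so enrichment by the pull-down was not measured.

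At a node, the axon membrane holds clustered sodium channels beneath a matrix of lecticans and link proteins. On each side, at the paranode, a glial form of neurofascin (from Nfasc) binds a complex of contactin (Cntn1) and its partner Caspr (Cntnap1) on the axon, and the glial side is tied to its membrane skeleton by the protein of Epb41l3 and others. Beyond that, at the juxtaparanode, contactin-2 (Cntn2), present on both glia and axon, gathers the Caspr relative of Cntnap2 with shaker-type potassium channels such as those of Kcna1 and Kcna2. The 10 genes therefore include glial, axonal and shared components, and counts per gene do not separate the glial from the neuronal neurofascin form.

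Total counts were 18549360 to 18771737 in the control and 19455245 to 22381307 in the cuprizone libraries. Cuprizone replicate 32 stood apart from its group: the chi-square per degree of freedom between replicates was 85.1 and 101 against replicates 30 and 31, where other pairs of a group had 24.4 to 30.6. All 12 markers of mature oligodendrocytes were detected in every library and fell, with summed levels of 61840 to 83510 CPM in the control (counts scaled to library size, the unit used throughout) and 8080 to 15110 CPM in the cuprizone libraries. Markers of other cells were present too, with none at 0 in any library: 10 astrocyte genes summed to 13620 to 26610 CPM, 12 neuron genes to 2330 to 5118 CPM and 10 progenitor genes to 821 to 1404 CPM. In bulk libraries of this kind, fewer cells of a type and less RNA per cell cannot be told apart.

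Of the 10 node region genes, 5 fell in cuprizone and none rose (edgeR's quasi-likelihood test, Benjamini-Hochberg adjusted over all genes tested). Among all genes tested 5.7% were called lower and 1.87% higher, 7.57% in all. DESeq2 and limma-voom also called 5 lower and none higher, and no gene beyond these 5 had an unadjusted p under 0.05. Such an unadjusted p from edgeR was seen in 23.3% of all genes tested. The 5 that fell were the link protein gene Hapln2, Cntn2, Kcna1, Epb41l3 and Nfasc, in order of the size of the fall. For each of them every cuprizone library lay below every control library, a separation shown in that direction by 17.6% of all genes tested and in either direction by 30.2%. The groups overlapped for the other 5, which were Cntn1, Cntnap1, Cntnap2, Bcan and Kcna2. The median log2 fold change of the 10 was -0.64, against 0.02 over all genes tested and -3.08 over the mature oligodendrocyte markers.

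**Figure D1:**
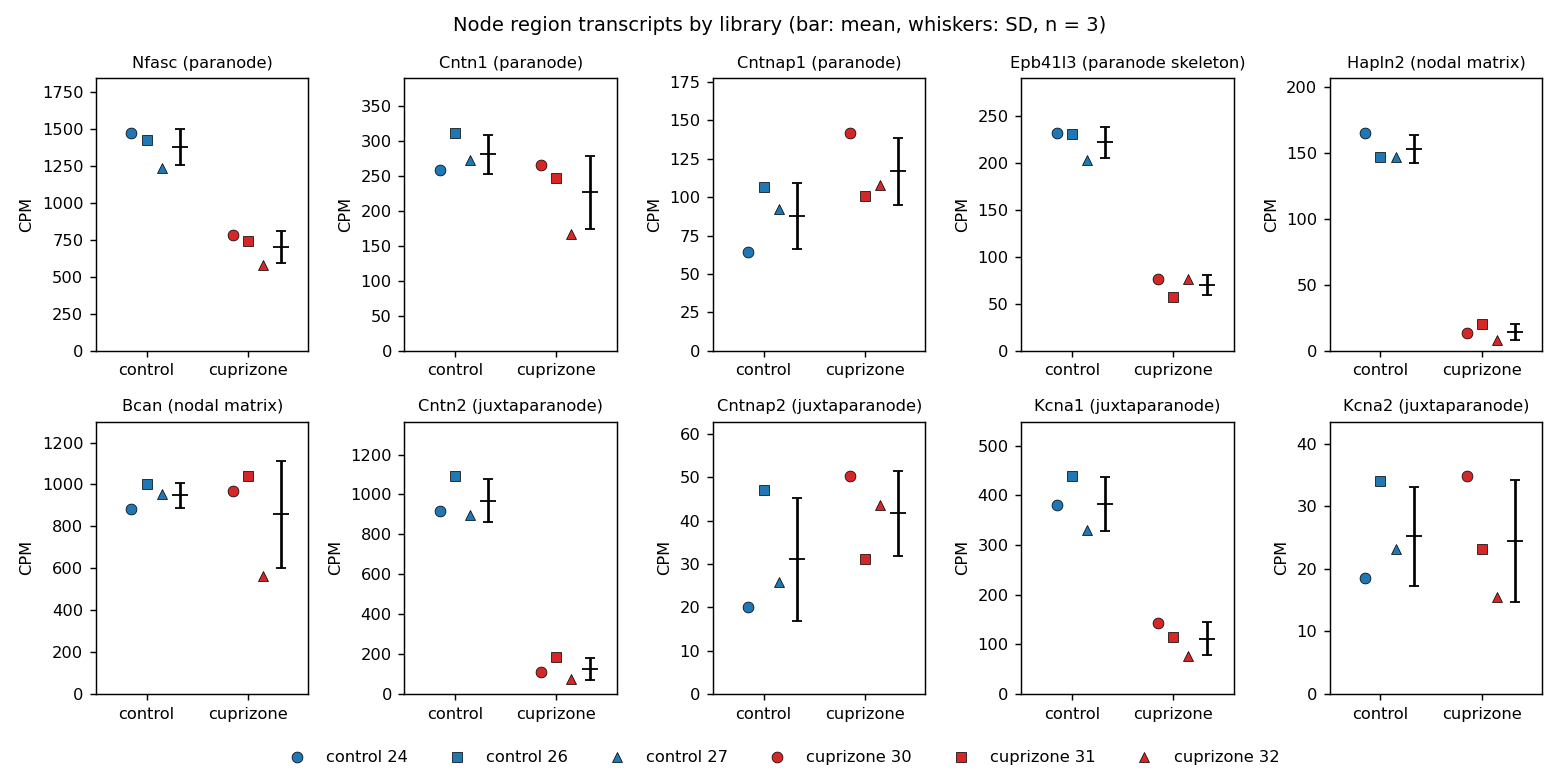
CPM of the 10 node region genes in each library (y axis, linear, from 0), with symbols for libraries and bars for the group mean and SD of 3 libraries. The control and cuprizone points separate fully for Nfasc, Epb41l3, Hapln2, Cntn2 and Kcna1 and overlap for Cntn1, Cntnap1, Bcan, Cntnap2 and Kcna2.

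The nodal matrix genes parted. Hapln2 encodes the brain link protein found at nodes of myelinated fibres, which is made by oligodendrocytes (ENSMUSG00000004894, chromosome 3, 88021750 to 88027583 in GRCm38, reverse strand). It was at 165, 147 and 147 CPM in control replicates 24, 26 and 27 and at 13.8, 20.4 and 7.97 CPM in cuprizone replicates 30, 31 and 32. All cuprizone libraries were thus far below the lowest control, with the lowest value in replicate 32. The means were 153 ± 10.7 CPM and 14.0 ± 6.22 CPM (SD, n = 3 each), a log2 fold change of -3.44 ± 0.33 (SE) with an edgeR adjusted p of 0.00203, or 10.9-fold lower. Without cuprizone replicate 32 the log2 fold change was -3.16.

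Bcan encodes brevican, a lectican that link proteins tether to hyaluronan and that progenitors and astrocytes also make (ENSMUSG00000004892, chromosome 3, 87987531 to 88000230, reverse strand). Its values were 884, 1004 and 954 CPM in the controls and 968, 1040 and 565 CPM in cuprizone. Cuprizone replicates 30 and 31 lay inside or just above the control range and only replicate 32 lay below it. The log2 fold change was -0.14 ± 0.25 (edgeR adjusted p = 0.77) and turned to 0.08 without replicate 32. In replicate 32 the summed progenitor and astrocyte markers were also at their lowest, at 821 CPM and 13620 CPM, and the part of this in the level of Bcan was not tested. Relative to the summed progenitor markers of the same library, Bcan counts had a log2 ratio of -0.37 ± 0.15 in the controls and -0.45 ± 0.11 in cuprizone (SD, n = 3), with replicate 32 at -0.54.

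Hapln2 and Bcan are neighbours in the same orientation, with 21519 bases and no annotated gene between them. Within a library, the log2 ratio of Hapln2 to Bcan counts was -2.42, -2.77 and -2.70 in the controls and -6.14, -5.67 and -6.14 in cuprizone. This ratio does not depend on library scaling, and it was 10.2-fold lower in cuprizone, with the groups well apart (exact permutation test, 2-sided, p = 0.1, the smallest that 3 against 3 libraries can give; 0.11 adjusted over the 9 gene pairs compared). A second pair of neighbours is Cntn2 and Nfasc on chromosome 1, with 21433 bases and no annotated gene between them, and here both fell. The sequences just upstream of Hapln2 and Bcan are shown because these neighbours parted. They are the 250 bases before a RefSeq start in GRCm38.p6, 5′ to 3′ on the reverse strand, at chr3:88027512-88027761 for Hapln2 and chr3:88000357-88000606 for Bcan. In GENCODE M21, 72 bases of the Hapln2 window lie in an exon that is not annotated as untranslated region, and none of the Bcan window lies in an exon. Capitals mark matches on either strand to ACAANG, the core bound by SOX factors, and to CTGGNAC, the motif of MYRF, both factors of the oligodendrocyte lineage.
Hapln2: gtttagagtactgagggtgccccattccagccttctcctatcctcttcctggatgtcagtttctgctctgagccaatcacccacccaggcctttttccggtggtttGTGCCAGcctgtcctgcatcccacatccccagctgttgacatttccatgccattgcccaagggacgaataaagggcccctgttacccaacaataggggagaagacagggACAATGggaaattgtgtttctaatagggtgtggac
Bcan: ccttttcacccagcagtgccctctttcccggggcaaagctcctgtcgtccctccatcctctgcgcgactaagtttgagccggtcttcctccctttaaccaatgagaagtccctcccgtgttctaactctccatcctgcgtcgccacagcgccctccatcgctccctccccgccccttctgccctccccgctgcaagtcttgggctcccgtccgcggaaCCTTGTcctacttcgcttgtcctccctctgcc
Hapln2 held 1 match to each motif and Bcan 1 match to ACAANG. The ACAANG match of Hapln2, at position -35 from the RefSeq start, lies within the 72 bases annotated as exon. The windows searched for Cntn2 and Nfasc are not printed: that of Cntn2 held 1 match to ACAANG, and neither of the 2 of Nfasc held a match to these motifs. The motif ACAANG occurs in 36.3% and CTGGNAC in 16.1% of 32851 upstream windows of the same length. A match is a description of letters only. The table of upstream sequences had windows for 8 of the 10 genes.

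Of 13 nodal and perineuronal matrix genes outside the 10, 1 fell and 1 rose, and their median log2 fold change was -0.07. The shares over all genes tested were 5.7% lower and 1.87% higher. Hapln1 and Ncan, a link protein and a lectican of the diffuse brain matrix, had log2 fold changes of -0.18 and -0.51 (edgeR adjusted p = 0.75 and 0.36). The ratio of Hapln2 to Hapln1 counts within a library was 9.97-fold lower in cuprizone, with no overlap (exact permutation p = 0.1, adjusted 0.11). Omg, which encodes oligodendrocyte-myelin glycoprotein, also placed near nodes, fell from 211 ± 19.8 CPM to 99.4 ± 24.02 CPM (log2 fold change -1.09 ± 0.19, edgeR adjusted p = 0.0178). Tnc, a matrix glycoprotein of astrocytes and immature glia, rose from 10.3 ± 2.10 CPM to 26.3 ± 11.1 CPM (1.36 ± 0.31, edgeR adjusted p = 0.0432). Both calls were lost when 1 of several libraries was left out, with adjusted p up to 0.0802 for Omg (without a control or cuprizone replicate 30) and up to 0.164 for Tnc (without any library but cuprizone replicate 32), and limma-voom gave 0.0581 for Tnc.

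At the paranode, the gene with the main glial ligand fell and the axonal partners did not pass the test. Nfasc (ENSMUSG00000026442, chromosome 1, 132564690 to 132741797, reverse strand) encodes neurofascin, whose glial form sits on paranodal loops and whose neuronal form sits at the node itself. It was at 1472, 1422 and 1237 CPM in the controls and at 785, 741 and 576 CPM in cuprizone, so that the groups did not overlap. The fall from 1377 ± 124 CPM to 701 ± 110 CPM gave a log2 fold change of -0.97 ± 0.19 (edgeR adjusted p = 0.0241). With 1 library left out the log2 fold change kept between -1.07 and -0.85, and the adjusted p was 0.0978, 0.105 and 0.0765 without control replicate 24, 26 or 27 and 0.0707 without cuprizone replicate 30.

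Cntn1 encodes contactin-1, the axonal member of the paranodal complex, which glia also express (ENSMUSG00000055022, chromosome 15, 92051165 to 92341967, forward strand). Its level was 258, 312 and 274 CPM in the controls and 265, 248 and 168 CPM in cuprizone, with replicate 32 alone well below the controls. The log2 fold change was -0.31 ± 0.20 (edgeR adjusted p = 0.39), or -0.13 without replicate 32. Cntnap1 encodes Caspr, the axonal partner of contactin-1 (ENSMUSG00000017167, chromosome 11, 101170523 to 101190724, forward strand). Its values were 64.3, 107 and 92.3 CPM in the controls and 142, 100 and 108 CPM in cuprizone, with a log2 fold change of 0.41 ± 0.22 (edgeR adjusted p = 0.30). The exons of Cntnap1 share 233 bases with Plekhh3 on the opposite strand, and whether strand was used in counting is not known from the labels. Control replicate 24 had the lowest level of Cntnap1 and also the lowest summed neuron markers, 2330 CPM against 3422 and 3531 CPM in the other controls, and the part of this in the result was not tested. Relative to the neuron markers of the same library, Cntnap1 had a log2 ratio of -5.15 ± 0.13 in the controls and -5.00 ± 0.49 in cuprizone.

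Within a library, Nfasc was lower relative to both axonal partners in cuprizone. The log2 ratio of Nfasc to Cntn1 counts went from 2.29 ± 0.19 to 1.64 ± 0.12 (SD, n = 3), and that of Nfasc to Cntnap1 from 4.0 ± 0.45 to 2.59 ± 0.26. The ratio to Nrcam, a relative of Nfasc found at nodes, went from 2.87 ± 0.32 to 1.38 ± 0.19. The groups did not overlap for these 3 ratios (exact permutation p = 0.1 each, adjusted 0.11). The log2 fold change of Nrcam itself was 0.53 (edgeR adjusted p = 0.24).

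Epb41l3 encodes a linker between membrane proteins and the actin and spectrin skeleton (ENSMUSG00000024044, chromosome 17, 69075683 to 69289989, forward strand). It was at 232, 230 and 203 CPM in the controls and at 76.5, 57.6 and 75.8 CPM in cuprizone. These values were close within each group and far apart between groups, with means of 222 ± 16.3 CPM and 70.0 ± 10.7 CPM, a log2 fold change of -1.66 ± 0.15 (edgeR adjusted p = 0.00186) and between -1.73 and -1.54 with 1 library left out. Its relative Epb41l1, known mostly from neurons, had a log2 fold change of -0.05, and the ratio of Epb41l3 to Epb41l1 counts was 3.05-fold lower in cuprizone with no overlap (exact permutation p = 0.1, adjusted 0.11). Epb41 and Epb41l2 had log2 fold changes of 0.24 and -0.11 (edgeR adjusted p = 0.46 and 0.73), so of these 4 family members only Epb41l3 passed the test.

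Other genes of the glial side of the paranode included large falls. Of 12 such genes, 5 fell and none rose, and the median log2 fold change was -0.56. Among all genes tested 5.7% were called lower and 1.87% higher. DESeq2 called 6 lower and none higher, and 7 had an unadjusted p under 0.05, against 23.3% of all genes tested. Of the 5, Mag, Cldn11 and Ugt8a also belong to the mature oligodendrocyte markers. Cldn11, the claudin of myelin tight junctions, had a log2 fold change of -3.02 ± 0.25, and Mag, an adhesion protein of the inner myelin membrane, one of -2.72 ± 0.29. Ugt8a and Gal3st1, which make galactocerebroside and turn it into sulfatide, lipids that paranodal junctions depend on, had -2.49 ± 0.23 and -1.89 ± 0.24. Pard3, a polarity protein, had -0.68 ± 0.14 (edgeR adjusted p = 0.0324), with adjusted values up to 0.115 when a control library or cuprizone replicate 30 was left out. The spectrin and ankyrin genes Sptan1, Sptbn1 and Ank2 did not pass the test, with log2 fold changes of 0.34, -0.56 and -0.57 (edgeR adjusted p = 0.30, 0.080 and 0.15).

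At the juxtaparanode, Cntn2 fell the most. It encodes contactin-2, an anchored adhesion protein on the facing glial and axonal membranes (ENSMUSG00000053024, chromosome 1, 132509427 to 132543256, reverse strand). Its values were 915, 1092 and 896 CPM in the controls and 110, 184 and 75.4 CPM in cuprizone. The groups were widely separated, with means of 968 ± 108 CPM and 123 ± 55.8 CPM and a log2 fold change of -2.97 ± 0.34 (edgeR adjusted p = 0.00368), or 7.86-fold lower. It was -2.72 without cuprizone replicate 32. The log2 ratio of Cntn2 to Cntn1 counts, which sets the 2 contactins against each other in a library, was 1.83, 1.81 and 1.71 in the controls and -1.27, -0.43 and -1.15 in cuprizone. It changed sign in every cuprizone library and was 6.65-fold lower in cuprizone (exact permutation p = 0.1, adjusted 0.11).

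Cntnap2 encodes the Caspr relative that contactin-2 binds on the axon, and it is a very long gene (ENSMUSG00000039419, chromosome 6, 45059357 to 47304213, forward strand). It was at 20.04, 47.2 and 25.9 CPM in the controls and at 50.3, 31.1 and 43.6 CPM in cuprizone, with overlapping groups. The log2 fold change was 0.42 ± 0.33 (edgeR adjusted p = 0.49), and it lay between 0.21 and 0.87 with 1 library left out. The ratio of Cntnap2 to Cntnap1 counts within a library overlapped between groups, at log2 -1.56 ± 0.34 and -1.50 ± 0.19 (exact permutation p = 0.8, adjusted 0.8). The Caspr genes thus showed no separation from each other, which does not show that they moved alike, since with 1 library left out the difference ran from -0.07 to 0.26.

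Kcna1 and Kcna2 encode partner subunits of the juxtaparanodal potassium channel, and the first fell while the other did not pass the test. Kcna1 (ENSMUSG00000047976, chromosome 6, 126640397 to 126646384, reverse strand) was at 381, 438 and 330 CPM in the controls and at 143, 114 and 77.3 CPM in cuprizone. All cuprizone values lay below the lowest control by a wide margin, with means of 383 ± 54.5 CPM and 112 ± 32.9 CPM, a log2 fold change of -1.78 ± 0.25 (edgeR adjusted p = 0.00714) and -1.57 without replicate 32. Kcna2 (ENSMUSG00000040724, chromosome 3, 107101146 to 107115005, forward strand) was at 18.5, 34.0 and 23.1 CPM in the controls and at 34.8, 23.2 and 15.5 CPM in cuprizone. Its groups overlapped almost fully, with a log2 fold change of -0.04 ± 0.33 (edgeR adjusted p = 0.96), which was 0.02 with upper-quartile scaling and 0.20 without cuprizone replicate 32. The log2 ratio of Kcna2 to Kcna1 counts went from -3.96 ± 0.35 to -2.22 ± 0.16, 3.34-fold higher in cuprizone with no overlap (exact permutation p = 0.1, adjusted 0.11).

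**Figure D2:**
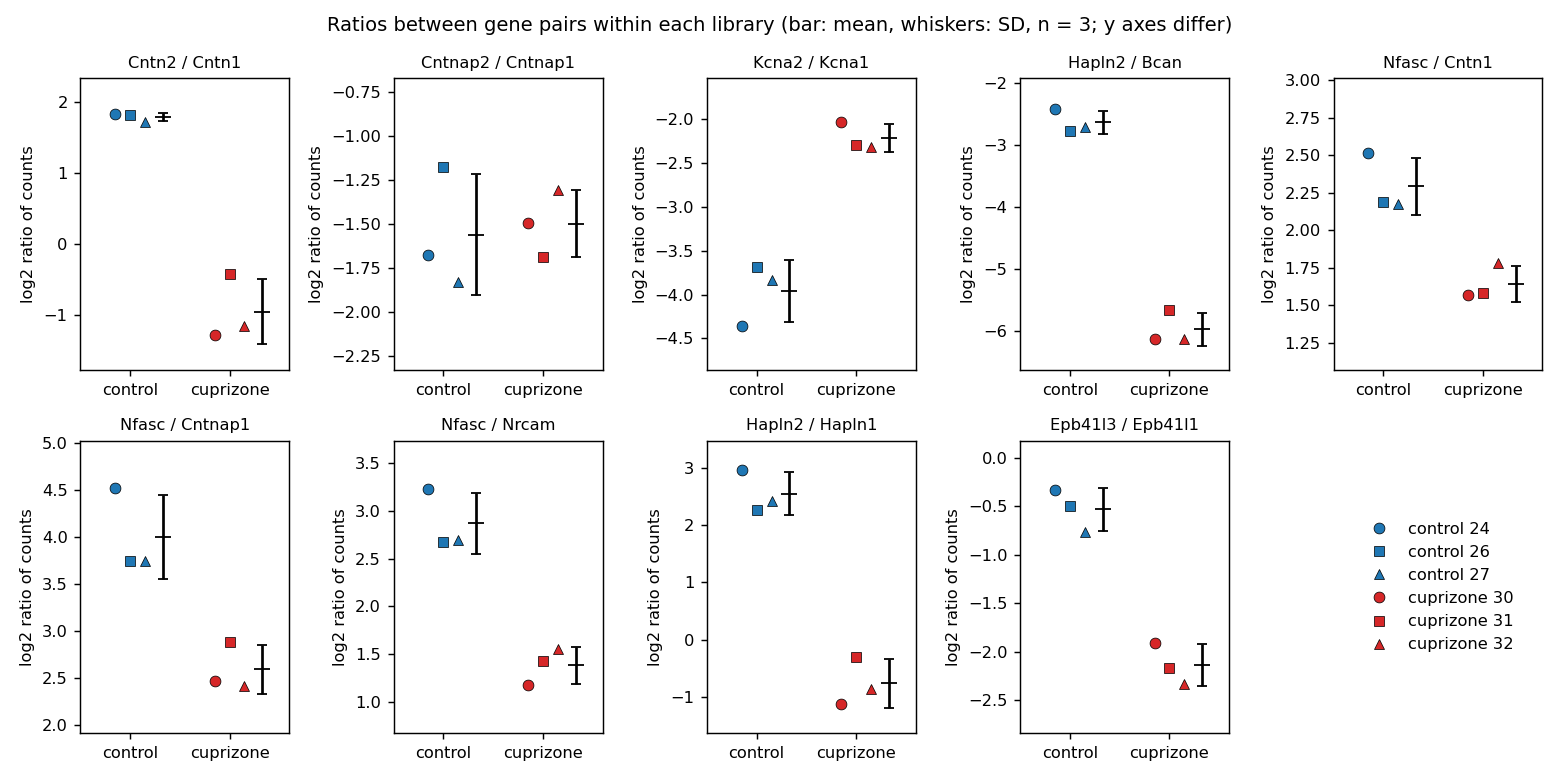
Log2 ratios of counts between gene pairs within each library (y axes differ in range), with symbols for libraries and bars for the group mean and SD of 3 libraries. The groups are apart for 8 of the 9 pairs and overlap for Cntnap2 over Cntnap1. Each of these 8 pairs sets a gene that fell against a gene that did not pass the test, whereas neither Caspr gene passed it. The separations therefore largely restate the fold changes. The pair farthest apart is Hapln2 over Bcan, with a difference of -3.35 on the log2 scale, and the closest of the 8 is Nfasc over Cntn1, with -0.65.

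Of 14 other genes of the juxtaparanodal complex, 2 fell and 2 rose, beside 5.7% and 1.87% of all genes tested. Their median was 0.14 on the log2 scale. The count depended on the tool: DESeq2 called 3 lower and 3 higher, and limma-voom 2 lower and 1 higher. Kcna6, another shaker-type subunit, fell from 299 ± 22.96 CPM to 115 ± 32.99 CPM (-1.38 ± 0.22, edgeR adjusted p = 0.0121). Lgi3, a secreted ligand of the ADAM22 family of receptors that oligodendrocytes express, fell from 666 ± 73.3 CPM to 143 ± 49.8 CPM (-2.22 ± 0.28, edgeR adjusted p = 0.00534). Kcna4 rose from 5.29 ± 1.80 CPM to 13.4 ± 3.68 CPM (1.34 ± 0.31, edgeR adjusted p = 0.0468) and Lgi1, the relative of Lgi3 best known from neurons, from 40.2 ± 4.65 CPM to 58.9 ± 5.55 CPM (0.55 ± 0.13, edgeR adjusted p = 0.0497). The calls of Kcna4 and Lgi1 were lost with 1 library left out, with adjusted p up to 0.158 (without any library but cuprizone replicate 31) and 0.138 (without any 1 of the 6), and limma-voom gave 0.0536 for Kcna4. That of Kcna6 was lost without control replicate 26 (0.0566) or cuprizone replicate 30 (0.0592). The scaffold gene Dlg4 and the receptor gene Adam22 did not pass the test (log2 fold changes 0.53 and -0.03, edgeR adjusted p = 0.44 and 0.96).

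Axonal components of the node itself showed no common fall. Of 13 genes for nodal channels, their scaffold and adhesion partners, 1 fell and 1 rose, beside 5.7% and 1.87% of all genes tested. The median was 0.31 on the log2 scale, with 10 of 13 values above 0. The 12 neuron markers had a median of 0.35, with 11 of 12 above 0 and none past the threshold, and summed to 3094 ± 664.5 CPM in the controls and 3833 ± 1201 CPM in cuprizone (SD, n = 3), and their part in the nodal values was not tested. The pore subunits Scn2a and Scn8a had log2 fold changes of 0.53 and 0.31 (edgeR adjusted p = 0.28 and 0.55). Sptbn4, the spectrin of nodes, had 0.47 (edgeR adjusted p = 0.28). Ank3, whose products anchor sodium channels at nodes and which oligodendrocytes also express at paranodes, fell from 386 ± 29.4 CPM to 145 ± 12.6 CPM (-1.41 ± 0.14, edgeR adjusted p = 0.00212). Scn4b, an auxiliary sodium channel subunit abundant in striatal neurons, rose from 129 ± 33.4 CPM to 298 ± 39.3 CPM (1.20 ± 0.21, edgeR adjusted p = 0.0169), a call that did not hold without cuprizone replicate 30, without control replicate 24 and without control replicate 26 (adjusted values up to 0.0762).

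Of the 9 further contactin and Caspr family genes, 0 were called by edgeR, by DESeq2 and by limma-voom, and 1 reached an unadjusted p under 0.05. Among all genes tested edgeR called only 7.57%, and 23.3% had an unadjusted p under 0.05, so few calls among 9 genes say little. The median log2 fold change of the 9 was 0.48, with 8 of 9 values above 0. The smallest adjusted p were those of Cntn5, Cntnap3 and Cntnap5a (log2 fold changes 1.24, 0.86 and 0.63, edgeR adjusted p = 0.18, 0.40 and 0.41). They were low, at 0.651, 1.97 and 2.70 CPM on average in the controls. Cntn2 was thus the only gene of these families past the threshold with these tools.

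**Figure D3:**
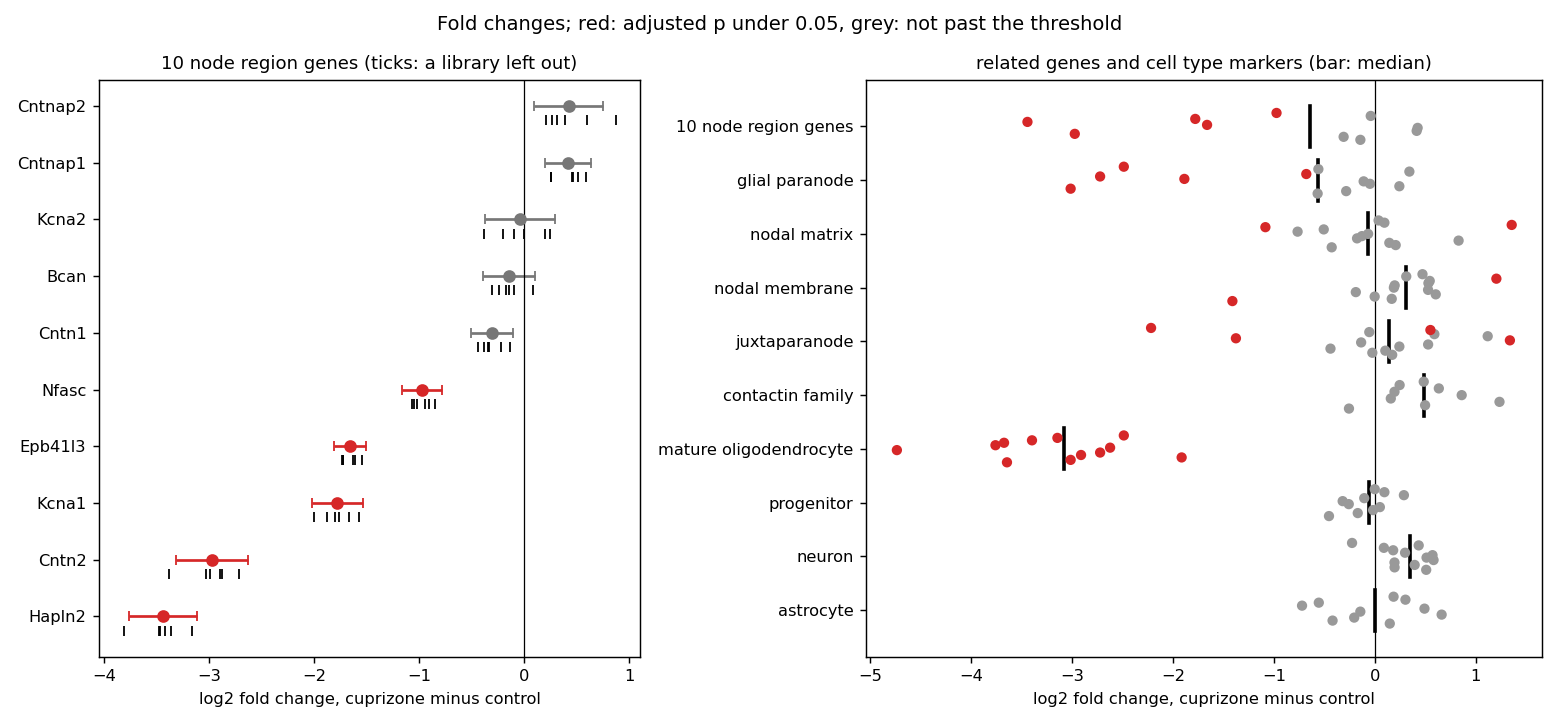
Left, log2 fold change (x axis) of the 10 node region genes with its SE, and ticks for the values with 1 library left out. Right, log2 fold changes of the related gene lists and of 4 cell type marker lists, with a bar at each list's median; red marks an adjusted p under 0.05. The 10 genes run from -3.44 (Hapln2) to 0.42 (Cntnap2), the mature oligodendrocyte markers from -4.74 (Mal) to -1.92 (Cnp), and no marker of progenitors, neurons or astrocytes is red.

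The 5 genes that fell were also set against the summed mature oligodendrocyte markers of the same library. The log2 ratio of Cntn2 to the summed markers was -6.24 ± 0.37 in the controls and -6.44 ± 0.27 in cuprizone, with overlapping groups (difference -0.20, exact permutation p = 0.6, adjusted 0.6), and without control replicate 26 the difference was 0.01. The ratio of Hapln2 was lower in cuprizone, from -8.90 ± 0.16 to -9.58 ± 0.38, with no overlap between groups (exact permutation p = 0.1, adjusted 0.11). The ratios of Kcna1, Epb41l3 and Nfasc were 2.07-fold, 2.29-fold and 3.69-fold higher in cuprizone, with no overlap (exact permutation p = 0.1, adjusted 0.11, for each). The ratios of the 5 genes that did not pass the test were 5.79-fold (Cntn1) to 10.2-fold (Cntnap2) higher, again with no overlap. The summed markers themselves fell from a mean of 73580 CPM in the controls to 10470 CPM in cuprizone. Any gene that fell less than this sum, or not at all, has a higher ratio for that reason alone. The higher ratios therefore restate the fold changes and are no further result. Mbp is the most abundant gene in this sum, at a mean of 34360 CPM in the controls, and its log2 fold change was -2.62. How far the lower ratio of Hapln2 rests on this weight was not tested. Taken singly, Mal, Mobp, Mog and Aspa (-4.74, -3.76, -3.675 and -3.65) fell more than Hapln2 (-3.44), and the other markers fell less.

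Markers of other cells were rarely called. Among 12 neuron markers and 10 progenitor markers there was no call by any of the 3 tools (edgeR, DESeq2, limma-voom), and 0 and 1 of them had an unadjusted p under 0.05. Of the 10 astrocyte markers none passed with edgeR or limma-voom, DESeq2 called 1 lower and 1 had an unadjusted p under 0.05. Of 10 microglia and 8 endothelial markers edgeR and limma-voom called none, DESeq2 called 1 higher in each list, and 2 and 3 had an unadjusted p under 0.05. Among all genes tested 23.3% had an unadjusted p under 0.05. Summed microglia markers were 1160 to 2239 CPM in the controls and 1707 to 3878 CPM in cuprizone, highest in replicate 32, and the list's median log2 fold change was 0.71, with 8 of 10 values above 0. The endothelial list had a median of 1.15, with 7 of 8 above 0, and summed to 21.8 to 23.5 CPM in the controls and to 44.8, 21.6 and 70.2 CPM in cuprizone replicates 30, 31 and 32, so that replicate 31 lay just below the control range. Summed neuron markers were lowest in control replicate 24 (2330 CPM) and highest in cuprizone replicate 32 (5118 CPM). Cntnap1, Cntnap2 and, among the controls, Kcna2 were also lowest in control replicate 24, whereas Cntn1, Bcan and Kcna2 were lowest of all in cuprizone replicate 32, where progenitor and astrocyte sums were lowest. The part of these markers in the levels of the 5 genes was not tested. For the 5 genes that fell, every cuprizone library was below every control also when set against the neuron, progenitor or astrocyte sum of its own library.

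**Figure D4:**
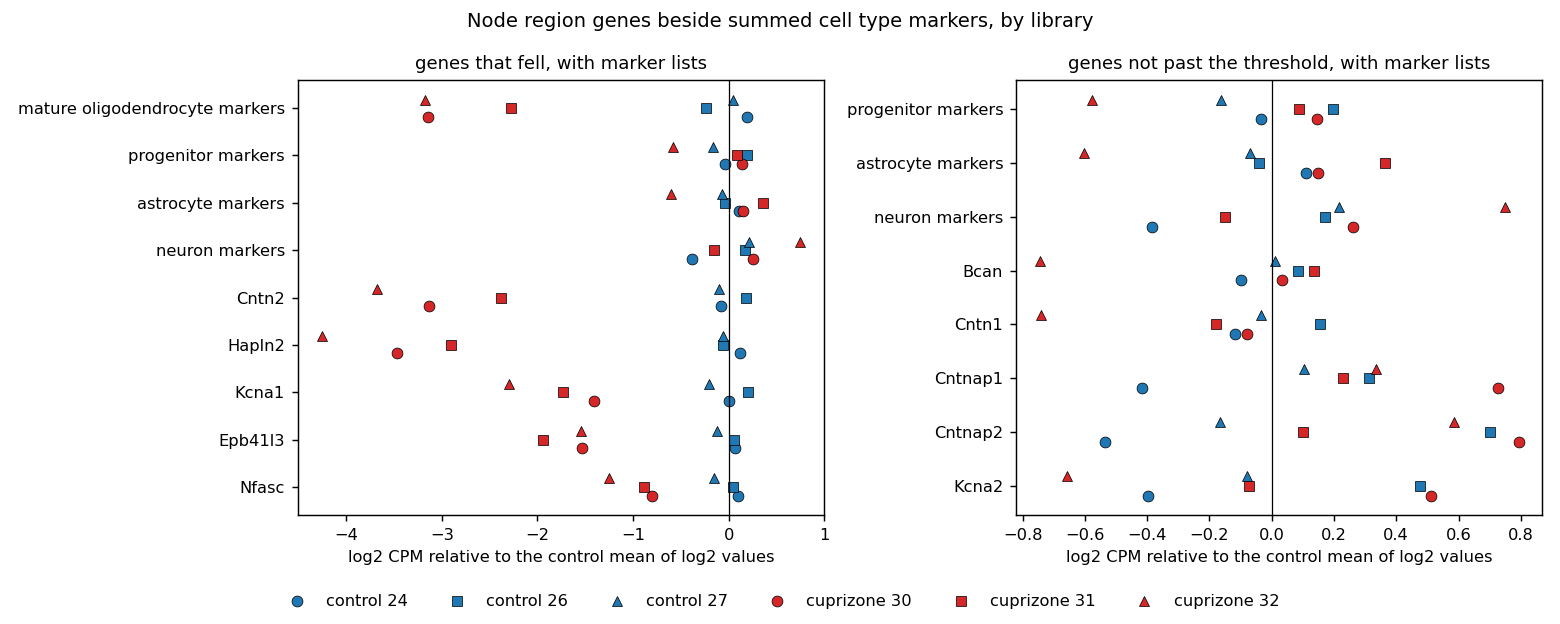
Log2 CPM of each gene or summed marker list in each library, relative to the mean of the control log2 values (x axis; the ranges of the panels differ). Left, the 5 genes that fell, whose cuprizone points lie to the left of all control points as those of the mature oligodendrocyte markers do. Right, the 5 genes that did not pass the test, with the progenitor, astrocyte and neuron markers; cuprizone replicate 32 is lowest for Bcan, Cntn1 and Kcna2 and control replicate 24 for Cntnap1 and Cntnap2.

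Levels can be set between genes only per length, here as CPM per kb of annotated exons. In the controls Bcan was highest at 233 ± 14.8 CPM per kb, followed by Cntn2 (104 ± 11.6), Nfasc (97.4 ± 8.75), Kcna1 (80.1 ± 11.4) and Hapln2 (64.5 ± 4.51), and among these last 4 each overlapped its neighbour in range, while Hapln2 lay apart from the next gene. Cntn1 (29.8 ± 2.93), Epb41l3 (18.6 ± 1.37) and Cntnap1 (14.9 ± 3.67) came next, and Cntnap2 (3.03 ± 1.40) and Kcna2 (2.12 ± 0.67) were lowest, overlapping each other. In cuprizone Bcan (211 ± 63.1 CPM per kb) and Nfasc (49.5 ± 7.78) led, each apart from the next gene in range, and Cntn2 (13.2 ± 5.99) and Hapln2 (5.92 ± 2.62) stood below Cntn1 (24.1 ± 5.51) and Cntnap1 (19.9 ± 3.75) in mean. The levels of Kcna1, Cntnap1, Epb41l3, Cntnap2 and Kcna2 in cuprizone were 23.3, 19.9, 5.87, 4.07 and 2.06 CPM per kb. In the controls Kcna1 was thus far above Kcna2 and Cntn2 far above Cntn1 per length, and in cuprizone the order of the contactins was the reverse while Kcna1 stayed above Kcna2. The level of Epb41l3 depends on the length used: over its longest transcript instead of all annotated exons it was 54.4 in the controls and 17.2 CPM per kb in cuprizone.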

How the data were processed

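The authors deposited 1 table of raw counts, with a row per Ensembl mouse gene. Per the submitters' processing notes, bcl2fastq 2.17 and build mm10 were used. The aligner, counter, annotation release and use of strand were not given in the sources used here. Per the labels' protocols, a Direct-zol kit served for RNA after pull-down and a Kapa kit for the libraries. Sample titles gave the match of columns to samples. No batch is named in the labels, and replicate numbers differ between groups.

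Names and coordinates came from GENCODE M21 (GRCm38, the assembly of mm10) and upstream sequences from RefSeq for GRCm38.p6. Of 39017 identifiers 37607 matched; the other 1410 stayed in the tests. The main test was that of edgeR 4.0.16 (R 4.3.3): filterByExpr (minimum count 10, minimum total 15) left 16569 genes, TMM factors were 0.915 to 1.11, and robust glmQLFit and glmQLFTest were 2-sided with p adjusted by Benjamini-Hochberg over these genes (threshold 0.05). The SE of a log2 fold change is its size divided by the square root of F. CPM use TMM-scaled library sizes. Ratios within a library are log2 of counts plus 0.5 (no offset in marker sums), tested over libraries with scipy 1.17.1 by an exact 2-sided permutation test and adjusted over the 9 pairs or 10 genes. Procedures were tested on simulated data. Alternatives were other scalings, filters, DESeq2 1.42.0, limma-voom (limma 3.58.1), estimation that is not robust, another offset, transcript length, and each library left out.

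The 10 genes and all lists were chosen with earlier results of these data known. Besides the 10, the genes to be named were, in each related list, those past the threshold, up to the 5 with the smallest adjusted p in each direction, or else the 3 with the smallest adjusted p. Further genes, such as Hapln1, Ncan, Nrcam, Epb41, Epb41l1, Epb41l2, Sptan1, Sptbn1, Ank2, Dlg4, Adam22, Scn2a, Scn8a and Sptbn4, were named after their values were seen, as partners or relatives. Ratios to neuron, progenitor and astrocyte markers were added after the data were seen.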

Additional observations from a re-analysis of the deposited data

How the results depend on the processing

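No paired analysis was possible because the groups share no replicate number. The 5 falls kept their direction in all 14 alternative fits. Those of Hapln2, Cntn2, Kcna1 and Epb41l3 stayed past the threshold in each, and that of Nfasc did not in 4 fits with a library left out, so that 4 or 5 genes were called lower with 1 library left out and 5 in every other fit. Over all genes tested, 310 were higher and 945 lower. DESeq2 called 830 genes higher, and with 1 library left out 65 to 464 were higher and 474 to 963 lower. No scaling shifted the median of all genes by more than 0.056 on the log2 scale.

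Directions reversed only for values near 0, none of them past the threshold. Kcna2 was at 0.020 with upper-quartile scaling and ran from -0.38 to 0.24 with 1 library left out (0.20 without cuprizone replicate 32), and Bcan ran from -0.31 (without cuprizone replicate 31) to 0.084 (without 32). With 1 library left out the difference in the ratio of Cntnap2 to Cntnap1 ran from -0.072 to 0.26 and that of Cntn2 to the mature oligodendrocyte markers from -0.34 to 0.01. Of 133 alternative ratio values the other 130 kept their direction, also with an offset of 5 counts. With the longest transcript as the length, CPM per kb in the controls were 141 for Nfasc, 49.6 for Cntn1, 132 for Cntn2, 302 for Bcan, 95.0 for Kcna1 and 54.4 for Epb41l3, and in cuprizone 72.0 for Nfasc, 40.0 for Cntn1 and 17.2 for Epb41l3. With 3 libraries per group, exact permutation tests could not reach the threshold, and differences in Cntnap2 and Kcna2, with 314 to 1116 counts per library, were measured with an SE of 0.33 on the log2 scale.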
